A study of Mus musculus with 6 samples.

Results

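The transcripts of the mitochondrial genome were examined in UN-SCC679 and UN-SCC680, a pair of mouse lung squamous cell carcinoma lines. The members were chosen by position alone, as all rows of the count table on chromosome M (chrM), which gave 37 of 55359 rows. They comprised 13 protein genes, 2 ribosomal RNA (rRNA) genes and 22 transfer RNA (tRNA) genes. Both lines came from tumors that the carcinogen NTCU (N-nitroso-tris-chloroethylurea) had induced in A/J mice, 1 tumor of a different mouse for each line. They were kept in culture until immortal, passed through immunodeficient mice and then through A/J mice, and grown as cultures without treatment. Each line was sequenced as 3 poly(A)-selected RNA libraries, so UN-SCC680 was compared with UN-SCC679 on 3 libraries each. The labels number these as replicates without saying whether they were separate cultures, so p-values measure the spread between these libraries, which may be technical. A difference between the lines is also a difference between 2 tumors.

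Mitochondrial DNA is a small circle from which both strands are transcribed into long precursors. In the usual naming, most genes belong to the heavy strand, while *mt-Nd6* and a minority of the tRNA genes belong to the light strand. The tRNAs lie between the larger genes and are cut out of the precursors, which releases the messenger and ribosomal RNAs, and short poly(A) tails are then added to most of them. The 13 proteins are subunits of respiratory chain complexes I, III and IV and of the ATP synthase (complex V), and the 12S and 16S rRNAs (*mt-Rnr1* and *mt-Rnr2*) belong to the mitochondrial ribosome.

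The libraries held 3568293 to 4381885 counts, of which 664587 to 814213 were mitochondrial. All 37 members had the same start and end in the table, in RefSeq for GRCm38.p6 and in the NCBIM37 annotation. The 13 protein sequences read from NCBIM37 chrM (16299 bases) were identical to the annotated transcripts, so sequences are given from NCBIM37. Most nuclear rows of the table lie at positions other than those of the aligned genome, and the squamous markers *Trp63*, *Krt5*, *Krt6a* and *Krt6b* were among these (4 of 4). The cell type label could therefore not be checked here. Percentages of all counts are shares of what the table counted, not of the library.

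Sequences of 4 stretches are printed to show how genes abut or overlap there, and whether this bears on their counts was not tested. The first runs from the end of *mt-Rnr1* through *mt-Tv* (valine tRNA, capitals) into *mt-Rnr2*, chrM:1005-1113, + strand. The second is *mt-Tc* (cysteine tRNA, capitals) followed by the 32 bases that separate it from *mt-Tn*, chrM:5160-5257, − strand, where the origin of light-strand replication lies. The third is *mt-Tp* (proline tRNA), chrM:15356-15422, − strand, which borders the control region of 877 bases. The fourth is *mt-Atp8*, chrM:7766-7969, + strand, with the 43 bases it shares with *mt-Atp6* in capitals.
mt-Rnr1 end, mt-Tv, mt-Rnr2 start: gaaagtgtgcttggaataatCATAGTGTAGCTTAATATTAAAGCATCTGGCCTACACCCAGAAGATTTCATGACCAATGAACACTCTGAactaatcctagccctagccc
mt-Tc and gap: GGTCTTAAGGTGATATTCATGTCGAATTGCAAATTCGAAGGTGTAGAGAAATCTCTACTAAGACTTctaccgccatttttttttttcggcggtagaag
mt-Tp: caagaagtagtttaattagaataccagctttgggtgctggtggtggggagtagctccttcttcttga
mt-Atp8: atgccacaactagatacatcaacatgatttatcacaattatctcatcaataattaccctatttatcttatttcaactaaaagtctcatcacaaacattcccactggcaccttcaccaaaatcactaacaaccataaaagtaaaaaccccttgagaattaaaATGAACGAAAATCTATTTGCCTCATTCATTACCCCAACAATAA

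Mitochondrial rows took a similar part of the counts in both lines. They held 18.7%, 18.4% and 18.6% of the counts of the UN-SCC679 libraries and 18.0%, 18.4% and 18.9% of those of UN-SCC680. The means were 18.6% ± 0.153 and 18.4% ± 0.438 respectively (SD, n = 3 each), and the libraries of the lines overlapped. An exact two-sided permutation test gave p = 0.6. When the chrM sum was tested with edgeR as 1 feature among all rows, its log2 fold change was 0.011 (standard error 0.021, adjusted p = 0.659). The number of mitochondrial genomes per cell and the RNA per genome cannot be told apart in such data.

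Within this total, the 2 rRNAs and a few messenger RNAs differed between the lines. Of the 37 members, 25 had any count and 17 passed the filter on low counts, namely the 13 protein genes, the 2 rRNA genes, *mt-Tc* and *mt-Tp*. Rows were tested with edgeR over the whole table, and called at a Benjamini-Hochberg adjusted p under 5e-05. The paper used this limit for each line against normal lung basal cells, not between the lines. Its figure also asked for a log2 fold change over 2, which was not applied here. When scaled by all rows, 6 of the 17 tested members were called, 2 higher and 4 lower in UN-SCC680. This was 35.3% of them, against a background of 30.4% of all tested rows called, 15.3% higher and 15.2% lower. When scaled within chrM, that is by the sum of the 37 members, 6 of 17 were again called, 2 higher and 4 lower, where 26.3% of all rows were called, 12.5% higher and 13.8% lower. The share of members called was therefore near the background in both scalings. Scaled by all rows, the median absolute log2 fold change was 0.14 over the tested members, so most mitochondrial differences were small. It was 0.38 over all tested rows, which were not matched to the members by level of counts. Most nuclear rows also lie at positions other than those of the aligned genome. These medians therefore do not set mitochondrial transcripts apart from others. The limit mattered for the count, since 12 of 17 members had an adjusted p under 0.05 in either scaling. The share of all tested rows under 0.05 was not taken, so this count does not set the members apart. Without the filter on low counts and scaled by all rows, 9 of the 25 members with any count were called, 5 higher and 4 lower. This added *mt-Co1*, *mt-Co2* and *mt-Nd5* to the higher ones, and the share of all rows called was not taken for that run either.

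**Figure D1:**
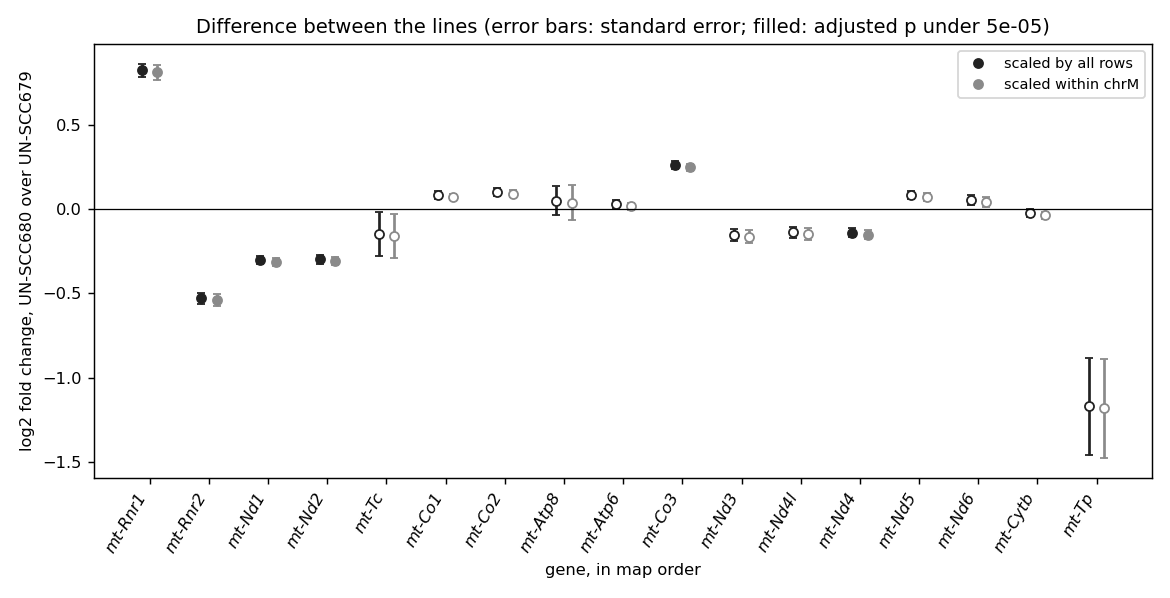
Log2 fold change of UN-SCC680 over UN-SCC679 (y axis) for the 17 tested mitochondrial genes in map order (x axis), scaled by all rows (black) or within chrM (grey), with standard errors from the edgeR fit. Filled points have an adjusted p under 5e-05, and *mt-Rnr1* at 0.82 and *mt-Rnr2* at -0.53 (scaled by all rows) lie on opposite sides of 0.

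The 12S rRNA gene *mt-Rnr1* showed the largest called change, a rise, while the 16S rRNA gene *mt-Rnr2* next to it fell. *mt-Rnr1* (ENSMUSG00000064337.1, chrM:70-1024, + strand) held 2465, 2806 and 2114 counts in the UN-SCC679 libraries and 4754, 4518 and 4969 in those of UN-SCC680. *mt-Rnr2* (ENSMUSG00000064339.1, chrM:1094-2675, + strand) held 10275, 11744 and 9403 counts in UN-SCC679 and 8044, 7481 and 8213 in UN-SCC680. Each UN-SCC680 library was above every UN-SCC679 library for the small subunit rRNA and below every one for the large subunit rRNA. Scaled by all rows, *mt-Rnr1* rose 1.77-fold (log2 fold change 0.82, standard error 0.039, adjusted p = 1.35e-22). *mt-Rnr2* was 1.44-fold lower (log2 fold change -0.53, standard error 0.033, adjusted p = 1.45e-18). Within chrM, the log2 fold changes were 0.81 and -0.54.

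The ratio of the rRNAs to each other depends on neither scaling. There were 0.240, 0.239 and 0.225 *mt-Rnr1* counts per *mt-Rnr2* count in UN-SCC679 and 0.591, 0.604 and 0.605 in UN-SCC680. The means, 0.235 ± 0.0084 and 0.600 ± 0.0078 (SD, n = 3 each), differed 2.56-fold, and no library of one line came near the other. The exact permutation p was 0.1, the smallest that 3 libraries against 3 can give. As a share of the rRNA counts, *mt-Rnr1* ran from 18.4% (95% Wilson interval 17.7% to 19.1%) to 19.3% (18.7% to 20.04%) in UN-SCC679 and from 37.1% (36.3% to 37.99%) to 37.7% (36.9% to 38.5%) in UN-SCC680. These intervals cover counting error only. Per length, the 16S row was above the 12S row in UN-SCC679, at 9175 ± 210.4 against 3567 ± 207 counts per kb, with each library scaled to a chrM total of 1000000 counts (SD, n = 3). In UN-SCC680 they stood at 6305 ± 397 and 6264 ± 339, where the libraries overlapped.

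**Figure D2:**
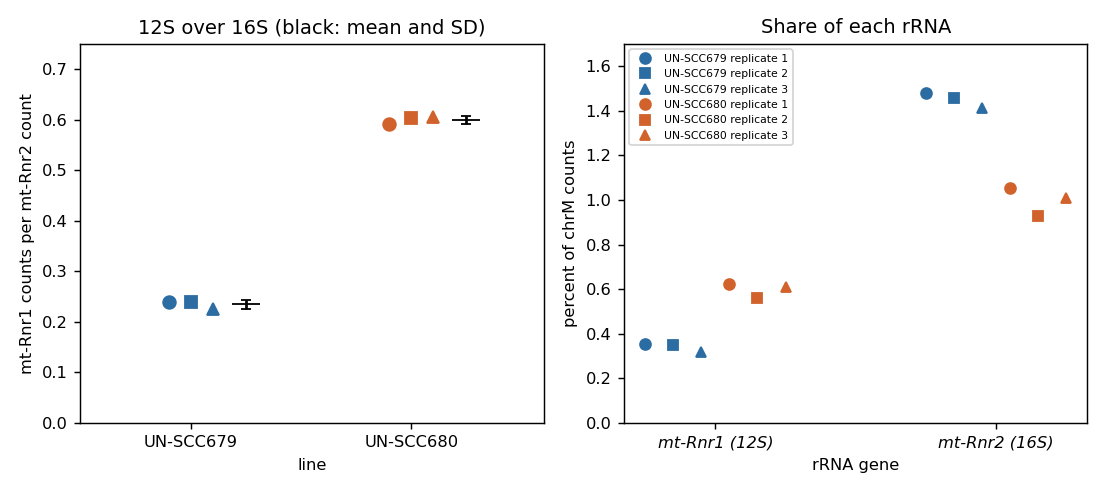
Left, *mt-Rnr1* counts per *mt-Rnr2* count (y axis) by line, with each library as a point and mean and SD (n = 3) in black. Right, the percent of chrM counts in each rRNA gene, where UN-SCC680 lies higher for 12S (0.562% to 0.623%) and lower for 16S (0.930% to 1.05%).

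The poly(A) selection of these libraries bears on the rRNA rows, which took 1.73% to 1.83% of chrM counts in UN-SCC679 and 1.49% to 1.68% in UN-SCC680. The counts are of rRNA carried through that selection, and the part of selection in the difference was not tested. The sum of both rRNAs hid the opposite changes. Its log2 fold change was -0.16 (adjusted p = 3.80e-05) scaled by all rows and -0.17 (adjusted p = 7.87e-05, which missed the limit) within chrM. The first call was lost without UN-SCC679 replicate 1 (adjusted p = 1.37e-04) or 2 (6.44e-04), without UN-SCC680 replicate 1 (6.33e-05) or 2 (0.0123), and with the replicate number as a block (1.81e-04). *mt-Tv*, the tRNA gene that fills the whole space between the rRNA genes in the first sequence above, had 0 counts in all 6 libraries.

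Among the 7 subunits of complex I (NADH dehydrogenase), which passes electrons from NADH to ubiquinone, 3 fell, 0 rose and 4 did not pass the limit. The largest falls were in the first 2 protein genes after the rRNAs. *mt-Nd1* (chrM:2751-3707) held 55376, 64241 and 54006 counts in UN-SCC679 and 49348, 51761 and 52747 in UN-SCC680, which was 7.98% to 8.13% against 6.43% to 6.48% of chrM counts. *mt-Nd2* (chrM:3914-4951) held 38353, 44089 and 35705 counts against 33441, 35479 and 35955, or 5.37% to 5.52% against 4.38% to 4.42%. Neither gene's shares overlapped between the lines. Scaled by all rows, the log2 fold changes were -0.30 for both, with standard errors of 0.025 and 0.026 and adjusted p-values of 1.95e-14 and 9.78e-14. Both genes encode membrane subunits of the proton-pumping arm of the complex.

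*mt-Nd4* (chrM:10167-11544), another membrane subunit, held 56806, 66681 and 58480 counts in UN-SCC679 and 57695, 60264 and 62635 in UN-SCC680, or 8.18% to 8.80% against 7.49% to 7.69% of chrM counts, without overlap. Its log2 fold change was -0.14 (standard error 0.027, adjusted p = 2.16e-05), and the call was the least stable of the 6. DESeq2 gave an adjusted p of 0.00102. Without UN-SCC679 replicate 2 or 3, or UN-SCC680 replicate 1 or 2, the adjusted p was 7.29e-05, 0.00203, 0.000561 and 0.00134. Within chrM it was called at -0.15 (adjusted p = 7.24e-06), and not without UN-SCC679 replicate 3 (3.52e-04) or UN-SCC680 replicate 2 (5.06e-04), with DESeq2 (7.67e-04) or with TMM over chrM rows (0.00612). *mt-Nd3* and *mt-Nd4l*, short subunits encoded on either side of the arginine tRNA gene, had log2 fold changes of -0.15 and -0.14 with adjusted p-values of 4.00e-04 and 6.32e-04, short of the limit. *mt-Nd3* held 6998, 7404 and 5826 counts against 6226, 6888 and 6761. Scaled by all rows, *mt-Nd3* passed without UN-SCC679 replicate 3 (adjusted p = 2.66e-05) and with plain library sizes (4.43e-05), and within chrM it passed without the filter (9.33e-06). Without UN-SCC679 replicate 1 its log2 fold change scaled by all rows was -0.092. *mt-Nd4l* held 5092, 5559 and 4878 counts against 4829, 5415 and 5199.

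*mt-Nd5* and *mt-Nd6*, late in the map order, stood on the other side of 0 from the remaining complex I subunits, and neither passed the limit in the main comparison. *mt-Nd5* (chrM:11742-13565) held 32974, 38408 and 32337 counts in UN-SCC679 and 38975, 40666 and 40517 in UN-SCC680, with a log2 fold change of 0.084 (adjusted p = 0.00323). Without the filter on low counts, *mt-Nd5* passed scaled by all rows, at 0.12 (adjusted p = 1.09e-05). *mt-Nd6* (chrM:13552-14070, − strand), the only protein gene of the light strand, held 8487, 9744 and 8147 counts against 9648, 10015 and 10261, with a log2 fold change of 0.054 (adjusted p = 0.106). The paper names a stranded library kit, but the table does not say whether reads were counted by strand. The *mt-Nd6* row can therefore hold RNA of the opposite strand. There were 25.2 to 25.7 *mt-Nd6* counts per 100 *mt-Nd5* counts in UN-SCC679 and 24.6 to 25.3 in UN-SCC680, and the ranges overlapped. As a class, complex I took 29.6% ± 0.364 of chrM counts in the UN-SCC679 libraries and 26.2% ± 0.065 in those of UN-SCC680 (SD, n = 3 for each line), and each UN-SCC680 library was below every UN-SCC679 library. The sum fell, and its log2 fold change was -0.16 scaled by all rows (standard error 0.023, adjusted p = 4.47e-08) and -0.17 within chrM (adjusted p = 7.03e-13).

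Complex IV (cytochrome c oxidase), which hands electrons to oxygen, moved the other way as a class. Its subunits all stood higher in UN-SCC680, and only the rise of *mt-Co3* passed the limit in the main comparison. *mt-Co3* (chrM:8607-9390), a structural core subunit, held 64261, 73063 and 59915 counts in UN-SCC679 and 82132, 87299 and 88545 in UN-SCC680. This was 9.02% to 9.26% of chrM counts against 10.8% to 10.9%, without overlap. The log2 fold change was 0.26 (standard error 0.025, adjusted p = 1.83e-12) scaled by all rows and 0.25 within chrM.

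*mt-Co1* (chrM:5328-6872), the catalytic subunit and the largest row on chrM, held 178177, 209550 and 170685 counts in UN-SCC679 and 205654, 218717 and 220979 in UN-SCC680. It took 25.7% to 26.0% of chrM counts in UN-SCC679 and 26.9% to 27.2% in UN-SCC680. *mt-Co2* (chrM:7013-7696), which receives electrons from cytochrome c, held 71253, 81012 and 66505 counts against 82296, 87524 and 86856. The libraries of the lines did not overlap for either gene, but the differences were small and missed the limit, at 0.082 (adjusted p = 0.00161) and 0.10 (adjusted p = 2.62e-04) on the log2 scale. Without UN-SCC680 replicate 1 both passed, at 0.11 (adjusted p = 2.78e-06) and 0.13 (adjusted p = 2.66e-06). *mt-Co2* also passed without UN-SCC679 replicate 1 (0.12, adjusted p = 3.10e-05), and without the filter both passed, at 0.11 (adjusted p = 1.00e-07) and 0.14 (adjusted p = 1.08e-08).

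The 3 complex IV genes together took 45.2%, 45.2% and 44.7% of chrM counts in UN-SCC679 and 48.5%, 48.9% and 48.7% in UN-SCC680. Shares of one total are not independent, since a rise of an abundant class lowers the shares of the others. Within chrM, the rise of complex IV and the fall of complex I are therefore not separate results. The sum rose, and its log2 fold change was 0.12 (standard error 0.022, adjusted p = 3.95e-06) scaled by all rows and 0.11 (adjusted p = 5.93e-11) within chrM. The first call was lost without UN-SCC679 replicate 2 (adjusted p = 3.74e-04) or 3 (adjusted p = 1.02e-04), with plain library sizes (adjusted p = 5.05e-05), and with the replicate number as a block (adjusted p = 2.05e-04). Complex IV counts per complex I count averaged 1.52 ± 0.028 in UN-SCC679 libraries against 1.86 ± 0.011 in UN-SCC680 libraries (SD, n = 3 each). The exact permutation p was 0.1, the smallest possible, and stood at 0.163 after adjustment over the 13 shares and ratios tested in this way.

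**Figure D3:**
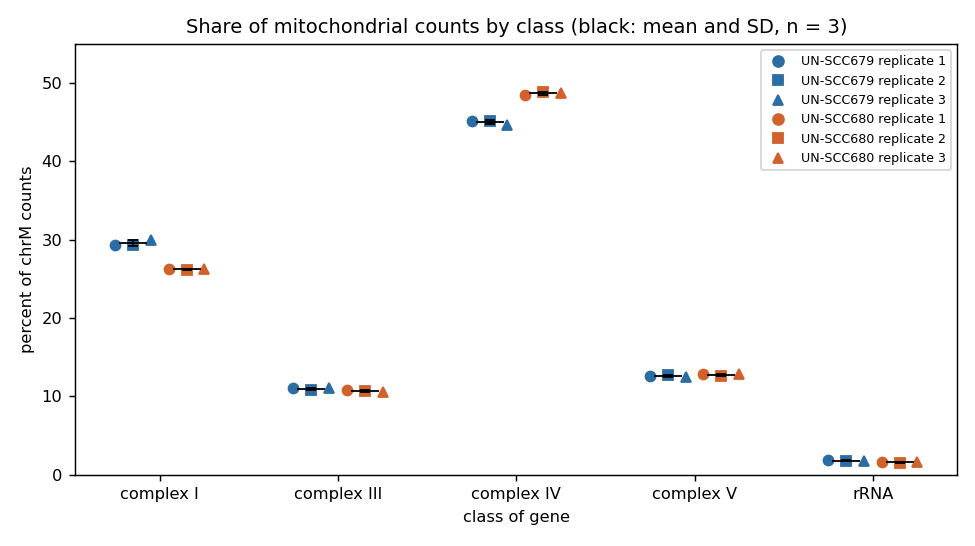
Percent of chrM counts (y axis) by class of gene (x axis), with each library as a point and the mean and SD of 3 libraries in black. UN-SCC680 lies below UN-SCC679 for complex I (26.2% against 29.6%) and above it for complex IV (48.7% against 45.0%).

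Complexes III and V differed little. *mt-Cytb* (chrM:14145-15288), cytochrome b and the only mitochondrial gene of complex III, held 76498, 87328 and 73291 counts in UN-SCC679 and 82132, 86528 and 86164 in UN-SCC680. Its shares of chrM did not overlap, at 10.9% to 11.0% and 10.6% to 10.8%, but the log2 fold change of -0.024 did not pass (standard error 0.023, adjusted p = 0.384). *mt-Atp6* (chrM:7927-8607), the subunit of the ATP synthase that forms its proton path, held 85508, 101434 and 81992 counts against 96553, 99859 and 102901. Its log2 fold change was 0.029 (standard error 0.023, adjusted p = 0.299), and the shares overlapped between the lines.

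*mt-Co3*, *mt-Nd4* and *mt-Cytb* share a feature that poly(A) tails complete. Their reading frames end in a single T, which becomes a stop codon when A residues are added to the cut RNA. The last 30 bases of each on the + strand are shown with that T in capitals, at chrM:9361-9390, chrM:11515-11544 and chrM:15259-15288.
mt-Co3 end: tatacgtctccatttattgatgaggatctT
mt-Nd4 end: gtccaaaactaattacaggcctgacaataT
mt-Cytb end: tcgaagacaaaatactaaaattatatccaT
Their log2 fold changes scaled by all rows were 0.26, -0.14 and -0.024, so the 3 genes did not move together.

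Read in map order, the log2 fold changes of the protein and rRNA genes changed sign along the mitochondrial genome, but several were close to 0. Scaled by all rows, *mt-Rnr1* stood at 0.82, and *mt-Rnr2*, *mt-Nd1* and *mt-Nd2* followed at -0.53, -0.30 and -0.30. From *mt-Co1* to *mt-Co3* the log2 fold changes lay between 0.029 and 0.26. They returned to values between -0.15 and -0.14 over *mt-Nd3*, *mt-Nd4l* and *mt-Nd4*, and to 0.084, 0.054 and -0.024 for *mt-Nd5*, *mt-Nd6* and *mt-Cytb*. Only *mt-Rnr1*, *mt-Rnr2*, *mt-Nd1*, *mt-Nd2*, *mt-Co3* and *mt-Nd4* passed the limit. The signs of *mt-Atp8*, *mt-Atp6*, *mt-Nd6* and *mt-Cytb* are not secure (edgeR adjusted p = 0.647, 0.299, 0.106 and 0.384). The tRNA rows *mt-Tc* (-0.15) and *mt-Tp* (-1.17) were tested too, and neither passed. Of the 17 tested members, 13 had libraries that did not overlap between the lines when scaled by all rows, against 62.2% of all tested rows. Within chrM the number was 14, against 61.4% of all tested rows.

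The levels per length were ordered alike at the top in both lines. In the same unit, counts per kb at a chrM total of 1000000, the order in UN-SCC679 was *mt-Atp6* (182382 ± 2392, SD, n = 3), *mt-Co1* (166972 ± 1399), *mt-Co2* (147850 ± 1945), *mt-Co3* (116293 ± 1581), *mt-Cytb* (95863 ± 851), *mt-Nd1* (83897 ± 882), *mt-Nd4* (61125 ± 2397) and *mt-Nd2* (52589.8 ± 750.2). The first 8 places were taken by the same genes in the same order in UN-SCC680, and in neither line did the libraries of neighbours among them overlap. *mt-Co3* came closer to *mt-Co2* there, at 138128 ± 756 against 157552 ± 1545.

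Lower in the order, several neighbours could not be separated. In UN-SCC679 *mt-Nd3* (26866 ± 1921) overlapped *mt-Nd5* (26295 ± 337), and *mt-Nd4l* (24224 ± 831) overlapped *mt-Nd6* (23503 ± 148). In UN-SCC680 *mt-Nd6* (24208 ± 198) overlapped *mt-Nd3* (23969 ± 586). *mt-Nd3* held place 9 in UN-SCC679 and place 11 in UN-SCC680. *mt-Atp8* came last of the protein genes in both lines.

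**Figure D4:**
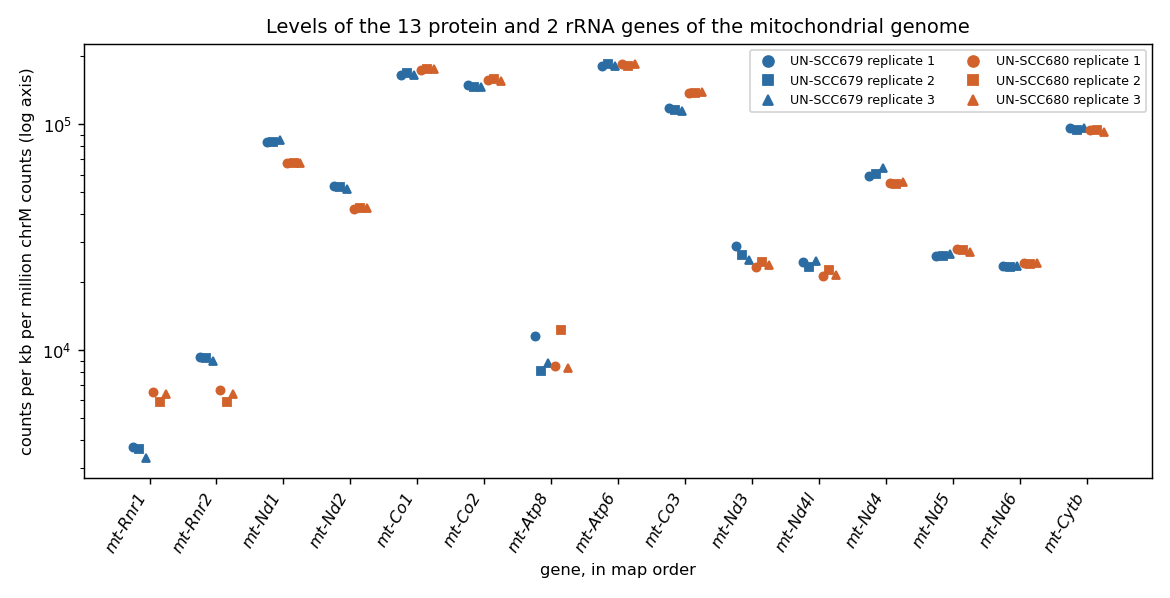
Counts per kb of gene at a chrM total of 1000000 counts (y axis, log scale) for the 13 protein and 2 rRNA genes in map order (x axis), with 1 point per library. *mt-Atp6* is highest in both lines, and *mt-Rnr1* is lowest in UN-SCC679 (3331 to 3718).

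*mt-Atp8*, a small membrane subunit of the ATP synthase, did not differ between the lines beyond the spread of its libraries. It held 1644, 1322 and 1191 counts in UN-SCC679 and 1323, 2015 and 1385 in UN-SCC680, and its log2 fold change was 0.049 (standard error 0.087, adjusted p = 0.647). It is read from the same messenger RNA as *mt-Atp6*, yet there were only 1.303 to 1.92 *mt-Atp8* counts per 100 *mt-Atp6* counts in UN-SCC679 and 1.35 to 2.02 in UN-SCC680. Of its 204 bases, the 43 in capitals above also belong to *mt-Atp6*, and 161 are its own. Per kb of its own bases and at a chrM total of 1000000, the level was 10206 to 14707 in UN-SCC679 and 10565 to 15556 in UN-SCC680, still far below *mt-Atp6*. How reads that touch both genes were counted is not given in the sources used here.

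Within a line, *mt-Atp8* was also the protein gene whose share varied most. Its coefficient of variation over 3 libraries was 19.8% in UN-SCC679 and 23.0% in UN-SCC680, where counting alone would give 2.69% and 2.52%. For the other 12 protein genes it was at most 7.15%. The high libraries were UN-SCC679 replicate 1 (0.237% of chrM counts, against 0.164% and 0.179%) and UN-SCC680 replicate 2 (0.250%, against 0.173% and 0.170%). *mt-Nd3*, *mt-Tc* and the sum of the tRNA genes were highest in the same 2 libraries, each within its line, and *mt-Nd4l* was highest in UN-SCC680 replicate 2 and within 0.001 percentage points of its highest share in UN-SCC679 replicate 1. These are rows of at most 348 bases. The coefficient of variation of *mt-Tc* was 7.27% in UN-SCC679 and 13.7% in UN-SCC680, where counting alone would give 10.5% in each. Its order among the libraries is therefore within reach of counting error. The sum of the tRNA genes is not separate from it, since *mt-Tc* held 70.8% of the tRNA counts. *mt-Tp* did not share the pattern, since it was highest in UN-SCC679 replicate 1 but, in UN-SCC680, in replicate 3. Its coefficient of variation was 36.2% in UN-SCC679 and 37.8% in UN-SCC680, where counting alone would give 18.4% and 26.4%. Among the 70 nuclear rows of up to 400 bases with at least 100 counts in every library, the median log2 deviation from the line mean was -0.0014 in the first of these libraries and 0.027 in the second. The second value was the largest of the 6 libraries for such rows, and many nuclear rows lie at other positions than those of the aligned genome. The part of row length in the spread was not tested.

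**Figure D5:**
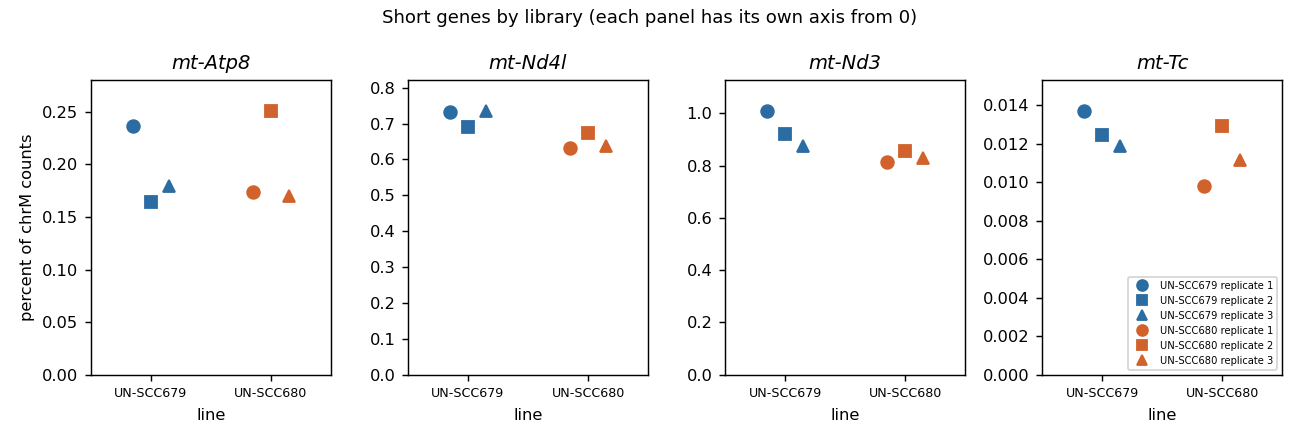
Percent of chrM counts (y axis, from 0 and different in each panel) for *mt-Atp8*, *mt-Nd4l*, *mt-Nd3* and *mt-Tc* by line, with 1 point per library. For *mt-Atp8*, UN-SCC679 replicate 1 (0.237%) and UN-SCC680 replicate 2 (0.250%) stand above the other 4 libraries (0.164% to 0.179%).

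The tRNA genes were nearly without counts, and almost all of what they held was in the rows of light-strand genes. They make up 9.72% of the bases of the members but took 0.0134% to 0.0219% of chrM counts. As for the rRNAs, the counts are of RNA carried through poly(A) selection, and the part of selection in these low counts was not tested. Of the 22, 12 had 0 counts in all 6 libraries, which allows up to 3 counts in each (at most 0.000451% of the chrM counts of a library). The 8 light-strand tRNA genes held 758 of the 768 tRNA counts over all libraries (98.7%), and 7 of the 8 had any. The 14 heavy-strand tRNA genes held 10 counts, in 3 genes. Since it is not given whether reads were counted by strand, these rows, like that of *mt-Nd6*, can hold RNA of the opposite strand.

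*mt-Tc* alone held 70.8% of the tRNA counts. Its row had 95, 100 and 79 counts in UN-SCC679 and 75, 104 and 91 in UN-SCC680, and its log2 fold change was -0.15 (standard error 0.13, adjusted p = 0.345). The shares of chrM overlapped. As the second sequence above shows, it is followed by 32 bases that belong to no gene, whereas most tRNA genes abut their neighbours. *mt-Tn*, on the other side of this gap, held 0 to 3 counts per library.

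*mt-Tp* borders the control region and had 40, 30 and 19 counts in UN-SCC679 against 11, 11 and 21 in UN-SCC680. Scaled by all rows, its log2 fold change was -1.17 (standard error 0.29, adjusted p = 5.53e-04), which missed the limit of 5e-05. *mt-Tf*, across the control region from it, had 0 counts in every library. No other tRNA row exceeded 10 counts in a library. *mt-Tl1*, on the heavy strand between *mt-Rnr2* and *mt-Nd1*, held 2 in each UN-SCC679 library and 0 to 1 in UN-SCC680, too few for a fold.

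By strand, the 9 light-strand members took 1.24%, 1.23% and 1.24% of chrM counts in UN-SCC679 and 1.28%, 1.26% and 1.28% in UN-SCC680. The libraries did not overlap (exact permutation p = 0.1, the smallest possible), and *mt-Nd6* gave nearly all of these counts. Tested as sums, the light-strand genes had a log2 fold change of 0.050 (adjusted p = 0.139) and the 28 heavy-strand genes one of 0.011 (adjusted p = 0.674). Neither passed the limit. The sums go by the strand of the gene, and each can hold RNA of the opposite strand.

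Some members have near-identical copies in the nuclear genome, where a read may be placed in either locus. In NCBIM37, the longest such copy is on chromosome 1, 4654 bases long and 99.94% identical to chrM:6390-11042. All windows of 50 bases, the length of a read, of *mt-Co2*, *mt-Atp8*, *mt-Atp6*, *mt-Co3* and *mt-Nd4l* had an exact nuclear copy, as had 99.0% of those of *mt-Nd3*, 62.2% of *mt-Nd4* and 51.1% of *mt-Co1*. No window of *mt-Rnr1*, *mt-Nd1*, *mt-Nd6* or *mt-Cytb* had one, and 6.13% of those of *mt-Rnr2* and 8.29% of *mt-Nd2* did. The counts of *mt-Co3*, which rose, and of *mt-Nd4* are therefore uncertain in a way that those of *mt-Rnr1* and *mt-Nd1* are not. The same uncertainty reaches the chrM total, the sums of complexes I, IV and V and the ratio of complex IV to complex I. Through the chrM total it also reaches every share or level scaled by that total, those of *mt-Rnr1* and *mt-Nd1* included. The genes with copies included the 4 of the highest level per length, and their log2 fold changes lay on both sides of 0. Reads were sequenced in pairs according to the paper, while the windows here stand for single reads. How reads with more than 1 place were counted is not given in the sources used here, and their part in the differences was not tested.

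Nuclear genes for the upkeep, transcription and processing of mitochondrial RNA could hardly be read from this table. Of 41 symbols listed, 28 lie at positions other than those of GRCm38, 12 could not be matched to a row and 1 was in place. That gene, *Mtpap*, encodes the mitochondrial poly(A) polymerase, which adds the tails to mitochondrial transcripts. It held 546, 656 and 496 counts in UN-SCC679 and 737, 710 and 780 in UN-SCC680, or 146 ± 5.88 and 172 ± 9.42 counts at a library total of 1000000 (SD, n = 3 each). The libraries did not overlap. Its log2 fold change was 0.27 (standard error 0.056, adjusted p = 7.78e-05), just short of the limit of 5e-05.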

How the data were processed

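The deposited values were raw counts of reads per gene, which were whole and not normalized, from 3 libraries of each line. The submitters' processing notes name mm10 and featureCounts, while the methods of the paper name Trimmomatic, Kallisto pseudoalignment to mm10 and DESeq2. The paper also names a stranded library kit and paired reads. The strand setting of the counting and the handling of reads with several places or genes are not given in the sources used here. Columns were assigned to libraries by their names, and all 6 were used. The members were all rows on chrM. The members, lists and tests were chosen with earlier results of these data known. The quasi-likelihood F test of edgeR (filterByExpr, TMM, no covariates) was run on the counts of the whole table, with p-values adjusted over the 8987 rows tested, and again with chrM totals as library sizes. Alternatives were DESeq2, plain library sizes, TMM over chrM rows, no filter, an adjusted p under 0.05, a replicate block and leaving out each library in turn. Standard errors were derived from the F statistics. Class sums were tested as features that replaced the members. Shares and ratios were compared by exact two-sided permutation tests. The 15 protein and rRNA genes were all described, and tRNA genes that passed the filter were named, which left 2, neither of which passed the limit. *mt-Tv*, *mt-Tn*, *mt-Tf* and *mt-Tl1* were chosen after their values were seen. TMM factors lay between 0.986 and 1.01. Libraries of a line were compared with each other and differed beyond sampling noise (chi-square per degree of freedom 1.12 to 1.57 over all rows and 3.80 to 22.2 over the chrM rows). Each counted as 1 in the tests, but such a difference does not show that they were separate cultures. The common coefficient of variation beyond counting was small in the edgeR fit, at 3.12%, and the p-values rest on that spread. Deviations from the line means were correlated between the lines for replicates 1, 2 and 3 (-0.038, -0.00051 and -0.022), and no pairing was taken from the numbers. The edgeR step was tested on simulated data. Nuclear copies were found with BLAST 2.17.0 and samtools 1.23.1. Other versions were Python 3.11.15, edgeR 4.0.16, R 4.3.3, DESeq2 1.42.0, limma 3.58.1, matplotlib 3.10.9, pandas 2.3.3 and NumPy 2.4.6.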

Additional observations from a re-analysis of the deposited data

How the results depend on the processing

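The calls of *mt-Rnr1*, *mt-Rnr2*, *mt-Nd1*, *mt-Nd2* and *mt-Co3* were kept under each alternative run, in both scalings, and that of *mt-Nd4* was not. Scaled by all rows, the 6 members called became 12 at an adjusted p under 0.05 (5 higher, 7 lower in UN-SCC680) and 9 without a filter (5 higher), and 2 to 4 were higher with 1 library left out. Scaled within chrM, they became 12 at that limit (5 higher, 7 lower). The limits themselves and the filter set these counts, and why single rows crossed them was not tested. No share over all rows was taken for these alternatives. Of the 10 overlapping sums tested, 3 were called, 1 with the replicate block and 1 to 3 with 1 library left out (1 without UN-SCC679 replicate 2). The sum of complex IV kept its direction, with 0.098 by library size (adjusted p = 5.05e-05, so not called), 0.12 with the replicate block and 0.11 to 0.16 with 1 library left out. The rRNA sum had -0.17 by the chrM total, -0.16 with the replicate block and -0.18 to -0.10 with 1 library left out. The replicate block ended the calls of these 2 sums, left 6 members called in each scaling and changed no other call. Sums close to 0 changed sign, those of all chrM and of the heavy strand to -0.016 and -0.016 by library size and over -0.0015 to 0.040 and -0.0019 to 0.039 with 1 library left out. The difference in chrM share of -0.199 percentage points became 0.148 with TMM-scaled library sizes and -0.428 to 0.0085 with 1 library left out. The differences in *mt-Atp8* per 100 *mt-Atp6* counts and *mt-Nd4l* per 100 *mt-Nd4* counts ran from -0.201 to 0.200 and from -0.212 to 0.213. The log2 fold change of *mt-Atp8* ran from -0.15 to 0.22 and, within chrM, from -0.17 to 0.21. That of *mt-Cytb* became 0.0080 without a filter and 0.0021 with TMM over chrM rows. The other tRNA rows held 10 or fewer counts per library and did not pass the filter on low counts.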
